A study of Homo sapiens with 6 samples.

Results

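The genes described here encode 39 proteins of the human centromere and kinetochore, chosen by name as one functional module. They were chosen with earlier results of these data known. All 39 were found among the 58219 genes of the deposited table. The RNA came from IMR90, a human diploid lung fibroblast line, engineered with ER-RAS. This construct joins oncogenic RAS to the ligand-binding portion of an oestrogen receptor, so that 4-hydroxytamoxifen (4OHT) turns it on. One group had received 100 nM 4OHT for 72 h (3 libraries, replicates A, B and C, called senescence-committed in the series title). It was compared with cells given the same dose for 30 h (3 libraries, called uncommitted controls). The sample titles give these times as 3 days and 1.5 days, and 1.5 days is not the same time as 30 h. Hours, as written in the protocol and the columns of the table, are given throughout. Both groups carry ER-RAS and both received 4OHT. Cells without 4OHT, or uncommitted at 72 h, were not analysed here, so commitment and time under RAS signalling cannot be told apart.

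The centromere is marked by nucleosomes in which CENP-A takes the place of histone H3. A set of inner proteins, the constitutive centromere-associated network, sits on this chromatin through the cell cycle, and in mitosis it recruits the outer kinetochore, whose KMN network (the KNL1, MIS12 and NDC80 complexes) grips the spindle microtubules. Kinases and MAD and BUB proteins at kinetochores without microtubules hold the cell before anaphase, which is the spindle checkpoint. Many of the transcripts accumulate in the G2 and M phases of cycling cells, while others are present throughout the cycle. In RNA from a whole culture, fewer cycling cells and less RNA per cycling cell cannot be told apart.

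The libraries held 13221152 to 15703544 reads assigned to genes, and the values given are normalised counts, that is read counts scaled by the authors for the depth of each library. All 10 fibroblast markers were detected, with summed levels of 111621 to 130603 normalised counts at 72 h and 269772 to 286736 at 30 h. Of these 10, 7 fell, 0 rose and 3 did not pass the test described next. By that test 25.0% of all tested genes fell and 23.6% rose. CD3E of the 4 leukocyte markers and CDH5 of the 4 endothelial markers had no read in any library, and the other markers of those lists stayed at or under 14.8 normalised counts. Of the 5 epithelial markers only KRT8 and KRT18 had enough reads to be tested, and summed levels of that list were 570.2 to 681 at 72 h and 723 to 822 at 30 h. Separate cultures are not stated in the labels for the replicates. The p-values therefore rest on differences among libraries that may be technical.

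Transcripts of the centromere and kinetochore were lower at 72 h. Of the 39 members, all of which had enough reads to be tested, 37 fell, 0 rose and 2 did not pass a Benjamini-Hochberg adjusted p of 0.05 over 13315 genes with limma. Among all tested genes 25.0% fell and 23.6% rose, at a median log2 fold change of 0.01, while the members had a median log2 fold change (72 h over 30 h) of -1.29. At least a 2-fold fall was seen for 24 members, against 6.70% of all tested genes. In 38 of the 39 every library of 72 h lay below every library of 30 h, which held for 29.9% of the tested genes. The fitted log2 fold changes ran from -1.97 for CENPI to -0.06 for MIS12. By the adjusted p of the authors' deposited table, 36 members were lower, 0 higher and 3 not past the threshold, beside 16.9% of its 17065 genes with an adjusted p that were lower.

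**Figure D1:**
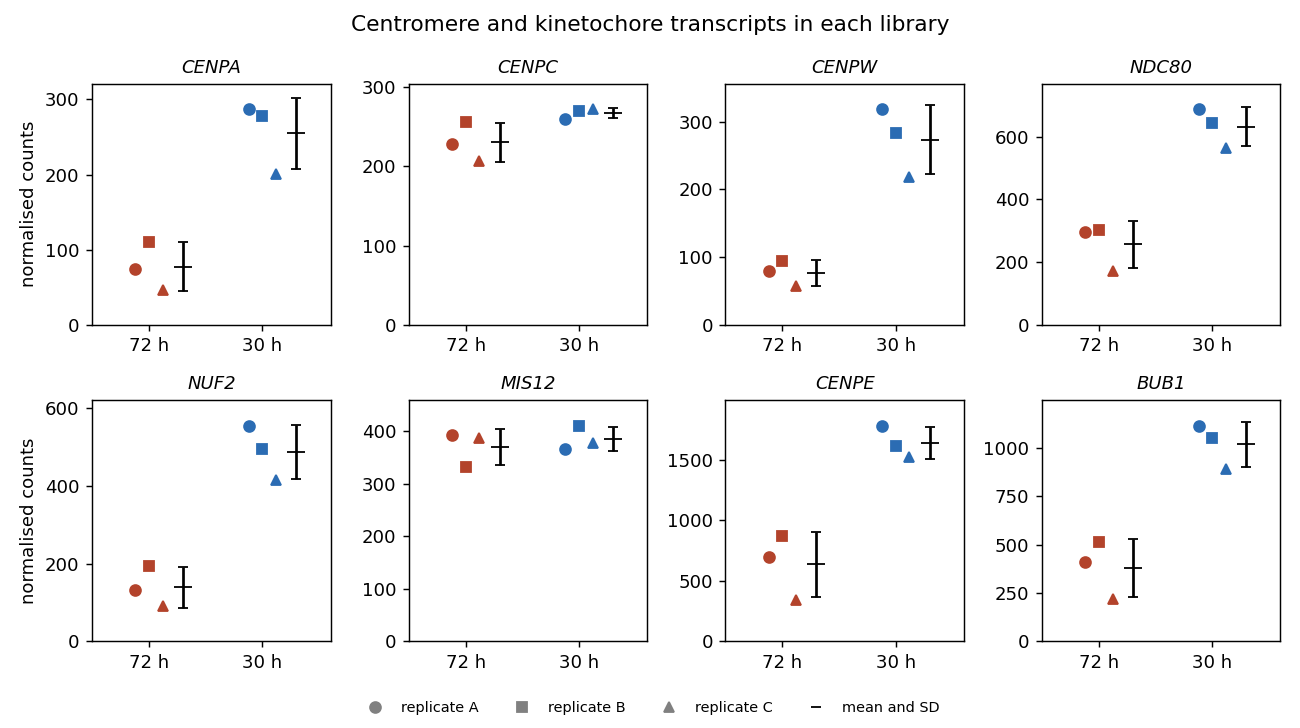
Normalised counts (vertical axes, from 0) of 8 members in the libraries of 72 h (red, left) and 30 h (blue, right), with circles, squares and triangles for replicates A, B and C and black bars for the mean and SD of 3 libraries. CENPA, CENPW, NDC80, NUF2, CENPE and BUB1 lay at lower levels in every library of 72 h, MIS12 overlapped between the times, and CENPC was separated by a small margin.

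The promoters of members were read from RefSeq to show the sequence in front of genes that moved together and of one that did not. Windows of 300 bases, from 250 before to 50 after a start site on GRCh38.p14, were found for 32 of the 39 members (37 windows). MIS18A, BUB3, KNL1, CENPL, CENPH, TTK and CENPM had no match. The letters TTTGAA, a form of the CHR element bound by the LIN54 subunit of the MuvB complex, were searched on both strands. Other forms of the CHR element were not searched. The CCAAT box (CCAAT), bound by NF-Y, and 2 forms of the E2F site (TTTCCCGC and TTTGGCGC) were searched likewise. None of these letter strings contains another. The windows shown are those of the member with the largest fall in 4 of the role groups (CENPA, NUF2, CENPF and BUB1). The constitutive centromere-associated network is the role group left out. Of the 2 windows of MIS12, which did not pass the test, the first is shown. They run 5′ to 3′ on the strand of the gene, with motif matches in capitals, where a CCAAT box on the other strand reads ATTGG.
CENPA, chr2:26785806-26786105, plus strand: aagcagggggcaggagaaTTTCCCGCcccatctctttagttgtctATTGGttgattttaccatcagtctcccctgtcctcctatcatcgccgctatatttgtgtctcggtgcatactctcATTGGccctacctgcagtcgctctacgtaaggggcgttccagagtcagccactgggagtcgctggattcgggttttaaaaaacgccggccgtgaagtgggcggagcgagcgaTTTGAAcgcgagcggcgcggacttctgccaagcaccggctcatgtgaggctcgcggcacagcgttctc
NUF2, chr1:163321704-163322003, plus strand: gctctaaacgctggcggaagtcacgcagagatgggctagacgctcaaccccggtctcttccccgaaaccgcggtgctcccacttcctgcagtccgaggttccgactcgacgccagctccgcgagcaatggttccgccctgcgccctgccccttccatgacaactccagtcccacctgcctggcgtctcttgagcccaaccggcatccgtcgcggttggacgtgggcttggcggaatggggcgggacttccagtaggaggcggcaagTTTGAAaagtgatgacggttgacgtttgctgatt
CENPF, chr1:214602945-214603244, plus strand: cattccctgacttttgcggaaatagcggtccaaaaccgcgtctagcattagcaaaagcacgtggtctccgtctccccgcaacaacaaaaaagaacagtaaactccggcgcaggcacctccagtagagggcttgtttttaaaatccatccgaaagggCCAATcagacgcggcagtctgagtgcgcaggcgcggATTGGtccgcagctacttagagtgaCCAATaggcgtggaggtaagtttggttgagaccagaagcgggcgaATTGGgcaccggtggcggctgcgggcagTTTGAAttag
BUB1, chr2:110678014-110678313, minus strand: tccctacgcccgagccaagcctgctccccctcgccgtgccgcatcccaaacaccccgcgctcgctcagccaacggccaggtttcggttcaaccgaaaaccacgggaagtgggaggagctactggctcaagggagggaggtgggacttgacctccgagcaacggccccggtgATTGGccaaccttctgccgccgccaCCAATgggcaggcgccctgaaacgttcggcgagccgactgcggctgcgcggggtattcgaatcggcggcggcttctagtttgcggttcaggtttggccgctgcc
MIS12, chr17:5486124-5486423, plus strand: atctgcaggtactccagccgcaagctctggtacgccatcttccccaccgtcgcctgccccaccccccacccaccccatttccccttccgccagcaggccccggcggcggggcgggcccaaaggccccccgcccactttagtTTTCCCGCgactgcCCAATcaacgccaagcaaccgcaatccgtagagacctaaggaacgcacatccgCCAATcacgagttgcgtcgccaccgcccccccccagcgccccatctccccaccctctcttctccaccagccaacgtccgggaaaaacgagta

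TTTGAA began 18 bases before the start site of CENPA, 16 bases after that of NUF2 and 40 bases after that of CENPF. The printed windows of BUB1 and MIS12 did not hold this form, and whether they hold another form of the CHR element was not tested. CCAAT boxes began 205 and 130 bases before the start of CENPA and 79 and 54 bases before that of BUB1. In CENPF they began 94, 58 and 33 bases before the start and 12 bases after it. In the printed window of MIS12 they began 95 and 42 bases before the start, and the NUF2 window held none. The other MIS12 window, not printed, held CCAAT boxes 234, 125 and 53 bases and an E2F form 100 bases before its start. An E2F form was found in the windows of CENPA and MIS12. Over the 37 member windows, TTTGAA was present in 15 (40.5%, from 14 of the 32 members with a window). It was present in 15.2% of the 35116 RefSeq windows of the same length. CCAAT was present in 24 member windows (64.9%, from 21 members) and in 34.6% of all windows. An E2F form was present in 4 member windows (10.8%) and in 2.27% of all windows. These 4 came from 3 members, since the 2 windows of MIS12 each held a match at a different place. None of the searched letter strings was found in the RefSeq window of CENPI, the member with the largest fall. That of CENPC, which did not pass the test, held TTTGAA on the other strand and CCAAT boxes. The RefSeq start lies inside the gene as the deposited table gives it, by 21767 bases for CENPA, 55378 for NUF2 and 2840 for CENPI. The distance is 103 bases for CENPC, 89 and 281 for the 2 starts of MIS12, 51 for BUB1 and 0 for CENPF. Which starts these cells use was not tested. A match is a string of letters and not a site shown to be bound.

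The histone CENP-A and the factors that load it were lower at 72 h, all 4 past the threshold. CENPA (ENSG00000115163.14, chromosome 2, 26764289 to 26801067) had 74.6, 111 and 46.2 normalised counts in replicates A, B and C of 72 h, against 287, 277 and 200.4 in those of 30 h. The highest library of 72 h was thus below the lowest of 30 h, and the log2 fold change was -1.78 ± 0.32 (SE, limma adjusted p = 0.0041), a 3.43-fold fall. HJURP, the chaperone that delivers CENP-A to the centromere, had 504, 613 and 291 at 72 h and 1173, 1045 and 837 at 30 h, a log2 fold change of -1.17 (adjusted p = 0.026). Its call was lost without 30 h replicate A, B or C, at adjusted p = 0.0692, 0.0716 and 0.0598. OIP5, also named MIS18B, a subunit of the complex that licenses loading, was among the least abundant members with 16.4, 48.8 and 23.1 at 72 h and 86.8, 97.5 and 66.4 at 30 h (log2 fold change -1.60, adjusted p = 0.00858). Of its exon length 38.0% lies over exons of OIP5-AS1 on the opposite strand, and no source used here says whether the authors counted by strand. MIS18A, the other Mis18 subunit among the members, had 204, 223 and 177 at 72 h and 303, 296 and 282 at 30 h (-0.55, adjusted p = 0.00189). Exons of CENPA share 138 bases with SLC35F6 on the same strand.

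Log2 fold changes of the inner kinetochore ran from -1.97 to -0.22. Of 13 members of the constitutive centromere-associated network, 12 fell and 1 did not pass, with a median log2 fold change of -0.87. CENPI (ENSG00000102384.13, chromosome X, 101098218 to 101163681), part of the CENP-H, CENP-I, CENP-K and CENP-M subcomplex, had 119.6, 161 and 75.5 normalised counts at 72 h and 484, 442 and 419.7 at 30 h. This was the largest fall of the 39 members, 3.92-fold, with a log2 fold change of -1.97 ± 0.26 (SE) and adjusted p = 0.00105. CENPW (ENSG00000203760.8, chromosome 6, 126340174 to 126348875), a small histone-fold protein, had 78.7, 94.2 and 56.6 at 72 h and 318, 283 and 218 at 30 h (-1.84 ± 0.20, adjusted p = 0.00014). The other 3 genes of the CENP-I subcomplex fell too. CENPH had 108, 139 and 61.9 at 72 h and 321, 312 and 262 at 30 h. CENPK had 184, 218 and 99.6 at 72 h and 459, 427 and 404 at 30 h. CENPM had 52.1, 53.2 and 25.2 at 72 h and 136, 112 and 94.9 at 30 h. Their log2 fold changes were -1.59, -1.43 and -1.43 (adjusted p = 0.00382, 0.00792 and 0.00374). In all of these the lowest library of 72 h was replicate C and the groups did not overlap.

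Smaller falls were found for the CENP-O, CENP-P, CENP-Q and CENP-U group and for CENP-L and CENP-N, which bind the CENP-A nucleosome. Log2 fold changes were -1.05 for CENPU, -0.87 for CENPP, -0.82 for CENPL, -0.80 for CENPO, -0.79 for CENPQ and -0.51 for CENPN (adjusted p = 4.15e-05 to 0.0104). CENPL had the smallest adjusted p of the members, at 204, 208 and 193 normalised counts at 72 h and 372, 346 and 354 at 30 h. CENPT, which reaches from the centromeric chromatin to the NDC80 complex, had 475, 510.1 and 432 at 72 h and 629, 642 and 560.0 at 30 h and fell by 1.29-fold (-0.37, adjusted p = 0.00529). CENPC (ENSG00000145241.10, chromosome 4, 67468748 to 67545606), the scaffold that links the CENP-A nucleosome to the MIS12 complex, had 229, 256 and 207 at 72 h and 260.3, 270.2 and 272 at 30 h. Its log2 fold change of -0.22 ± 0.10 (SE) did not pass, with adjusted p = 0.0957, and was past the threshold without 72 h replicate B (adjusted p = 0.0424). Exons over genes of the opposite strand make up 27.0% of the exon length of CENPO (ADCY3) and 38.0% of that of CENPP (IPPK).

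**Figure D2:**
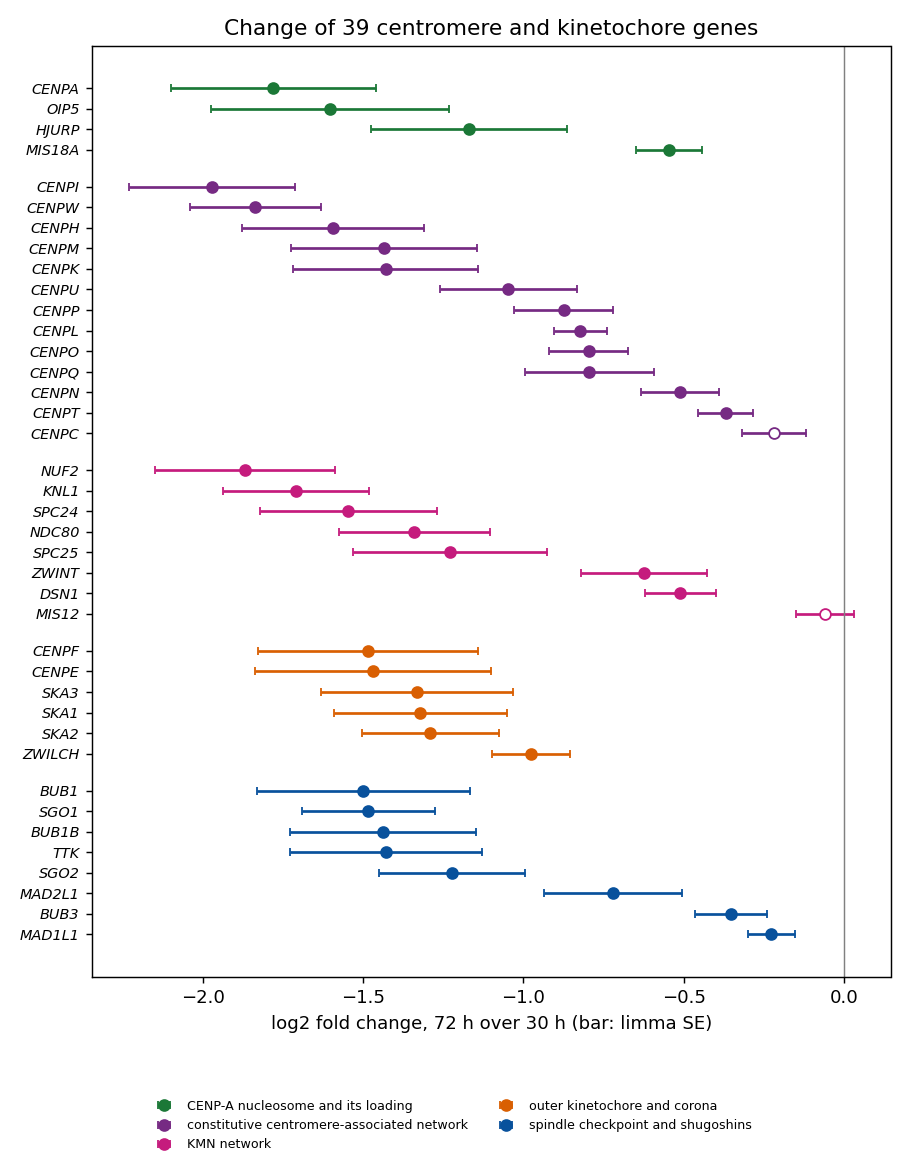
Log2 fold change, 72 h over 30 h, of each member (points) with limma's standard error (bars, 3 libraries per group), ordered within 5 role groups marked by colour. Filled points passed an adjusted p of 0.05 and open points (CENPC and MIS12) did not. All points lie left of 0, from -1.97 for CENPI to -0.06 for MIS12.

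The microtubule-binding KMN network was lower at 72 h in 7 of 8 members, with a median log2 fold change of -1.28. NUF2 (ENSG00000143228.12, chromosome 1, 163266576 to 163355764), a subunit of the NDC80 complex, had 131, 194 and 90.2 normalised counts at 72 h and 554, 495 and 414 at 30 h, a 3.65-fold fall (-1.87 ± 0.28 SE, adjusted p = 0.00227). NDC80 (ENSG00000080986.12, chromosome 18, 2571511 to 2616635), its partner in the microtubule-binding dimer, had 297, 303 and 169.9 at 72 h and 687, 644 and 564 at 30 h (-1.34 ± 0.24, adjusted p = 0.00437). SPC24 and SPC25 form the dimer at the other end of that complex. SPC24 had 105, 133 and 64.0 at 72 h and 341, 284 and 234 at 30 h (-1.55, adjusted p = 0.00353). SPC25 had 99.1, 118 and 58.7 at 72 h and 255, 234 and 151 at 30 h (-1.23, adjusted p = 0.0144, and 0.0509 without 30 h replicate B). All 4 subunits of the NDC80 complex were thus lower in every library of 72 h. KNL1 (CASC5), the scaffold on which checkpoint proteins assemble, had 369, 472 and 256 at 72 h and 1287, 1178 and 1032 at 30 h (-1.71 ± 0.23, adjusted p = 0.00166).

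The remaining members of the KMN network fell less or did not pass. ZWINT, the partner of KNL1, had 841, 951 and 559 normalised counts at 72 h and 1187, 1238 and 1115 at 30 h (-0.62, adjusted p = 0.0428). It missed the threshold without 72 h replicate A (adjusted p = 0.0593) and without 30 h replicate A, B or C (0.0983, 0.113 and 0.108). DSN1, the subunit of the MIS12 complex that answers to Aurora B, had 328, 332 and 260.1 at 72 h and 432, 475 and 399.7 at 30 h (-0.51, adjusted p = 0.00396). MIS12 (ENSG00000167842.15, chromosome 17, 5486285 to 5490814), after which that complex is named, had 392, 331 and 387 at 72 h and 367, 410.4 and 378 at 30 h and was the one member whose groups overlapped. Its log2 fold change was -0.06 ± 0.09 (SE, adjusted p = 0.629), and 0.02 without 72 h replicate B.

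Transcripts for the outer kinetochore and its corona fell, all 6 past the threshold with log2 fold changes of -1.49 to -0.98. CENPF, a large coiled-coil protein of the corona, was the most abundant member by normalised count at 30 h, with 1326, 1756 and 735 at 72 h and 3846, 3299.8 and 2965 at 30 h (-1.49 ± 0.34 SE, adjusted p = 0.0185). CENPE (ENSG00000138778.11, chromosome 4, 103105806 to 103198409), the kinesin that carries chromosomes to the metaphase plate, had 699, 868 and 339 at 72 h and 1780.0, 1614 and 1522 at 30 h (-1.47 ± 0.37, adjusted p = 0.0243). Replicate C of 72 h was the lowest library for both. The call of CENPF was lost without 30 h replicate B (adjusted p = 0.05, just above the threshold) or C (0.0591), and that of CENPE without 30 h replicate A, B or C (0.0598, 0.0627 and 0.0791). The 3 subunits of the SKA complex, which tracks microtubule ends, had close log2 fold changes. SKA1 had 191, 246 and 117 at 72 h and 489, 459 and 388 at 30 h. SKA2 had 487, 515 and 307 at 72 h and 1047, 1163 and 930.1 at 30 h. SKA3 had 362, 458 and 209.8 at 72 h and 895, 863 and 722 at 30 h. Their log2 fold changes were -1.32, -1.29 and -1.33 (adjusted p = 0.00802, 0.00366 and 0.0154). ZWILCH, of the RZZ complex that brings dynein and MAD1 to the kinetochore, had 482, 564 and 411 at 72 h and 1021, 995 and 840.5 at 30 h (-0.98, adjusted p = 0.000291).

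Among 8 genes of the spindle checkpoint and the shugoshins, all 8 fell, with log2 fold changes from -1.50 to -0.23. BUB1 (ENSG00000169679.14, chromosome 2, 110637698 to 110678114), the checkpoint kinase at the kinetochore, had 409.8, 514 and 218 normalised counts at 72 h and 1114, 1050.5 and 892 at 30 h, a 2.83-fold fall (-1.50 ± 0.33 SE, adjusted p = 0.0146, and 0.0518 without 30 h replicate C). BUB1B, the gene of BubR1 in the mitotic checkpoint complex, had 338, 427 and 199 at 72 h and 932, 814 and 758 at 30 h (-1.44, adjusted p = 0.01), and shares 457 exonic bases with the readthrough gene BUB1B-PAK6. TTK, the kinase MPS1 at the head of the checkpoint, had 263, 369 and 160.5 at 72 h and 677, 701 and 644 at 30 h (-1.43, adjusted p = 0.0111). SGO1 and SGO2 are the shugoshins, which protect cohesin at centromeres. SGO1 had 108, 102 and 61.9 at 72 h and 283, 241 and 225 at 30 h (-1.48, adjusted p = 0.000555), and 17.7% of its exon length lies over SGO1-AS1 on the opposite strand. SGO2 had 412, 470.0 and 261 at 72 h and 972, 846 and 785 at 30 h (-1.22, adjusted p = 0.00615). In each of these 5 genes the lowest library was 72 h replicate C.

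The checkpoint genes BUB3, MAD1L1 and MAD2L1 changed less. MAD2L1, the inhibitor of CDC20, had 897, 1131 and 621 normalised counts at 72 h and 1376, 1388 and 1479 at 30 h (-0.72 ± 0.22 SE, adjusted p = 0.0374). That call was lost without 72 h replicate A (adjusted p = 0.0711) or any library of 30 h (0.0858, 0.0908 and 0.133 without A, B and C), and with the replicate letter as a block (0.0791). BUB3, the WD40 partner of BUB1 and BubR1, had 1978, 1974 and 1614 at 72 h and 2547, 2532 and 2030.0 at 30 h (-0.35, adjusted p = 0.034), and adjusted p = 0.0652, 0.103 and 0.105 without 72 h replicate C, 30 h replicate A and 30 h replicate B. MAD1L1, the gene of MAD1, had 339, 336 and 334 at 72 h and 384, 384 and 413 at 30 h, a 1.17-fold fall (-0.23 ± 0.07, adjusted p = 0.0268). Without any 1 of the 6 libraries that call was lost, at adjusted p = 0.0619, 0.0618 and 0.0535 without A, B and C of 72 h and 0.0554, 0.0564 and 0.0764 without those of 30 h, and with DESeq2 (0.107) and quantile normalisation (0.0569). In the authors' deposited table MAD1L1 had adjusted p = 0.122.

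The libraries of 72 h were not alike. Replicate C of 72 h was the lowest of its group for 36 of the 39 members, against 39.1% of all tested genes and 52.6% of the tested genes that fell, and replicate B the highest for 33. The median member lay at -1.08, -0.85 and -1.79 on the log2 scale relative to its 30 h mean in replicates A, B and C of 72 h, and at 0.12, 0.04 and -0.16 in those of 30 h. At 30 h, replicate C was the lowest for 34 members. Shares over all tested genes were not computed for replicate B at 72 h or replicate C at 30 h. Reads of the 39 members made up 0.106%, 0.123% and 0.0741% of the reads of replicates A, B and C at 72 h, against 0.218%, 0.205% and 0.180% at 30 h. MKI67, the proliferation marker Ki-67, had 2394, 2659 and 1413 normalised counts at 72 h and 6273, 5595 and 5140.0 at 30 h, and its highest library was B at 72 h and A at 30 h. The libraries of 72 h were in the order of MKI67 for 32 of the 39 members (82.1%), against 22.6% of all tested genes and 34.8% of those that fell. Those of 30 h were in its order for 26 members (66.7%), against 20.5% and 28.8%. All 11 genes of a list of proliferation genes fell, against 25.0% of all tested genes, at a median log2 fold change of -1.32. Values were -1.74 for CDC20, -1.64 for CCNB2, -1.62 for PLK1 and -1.40 for CCNA2 (adjusted p = 0.00721, 0.00339, 0.00511 and 0.00342). Of the 37 members that fell, 12 fell by more than MKI67 (log2 fold change -1.44). The part of differences in cycling cells between the libraries in these falls was not tested. Between libraries of the same letter the median member differed by -1.24, -0.90 and -1.58 for A, B and C. Within letters 38, 39 and 38 of the 39 members were lower at 72 h, and that share over all tested genes was not computed. Without 72 h replicate C the median log2 fold change of the members was -1.01 and 35 fell.

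**Figure D3:**
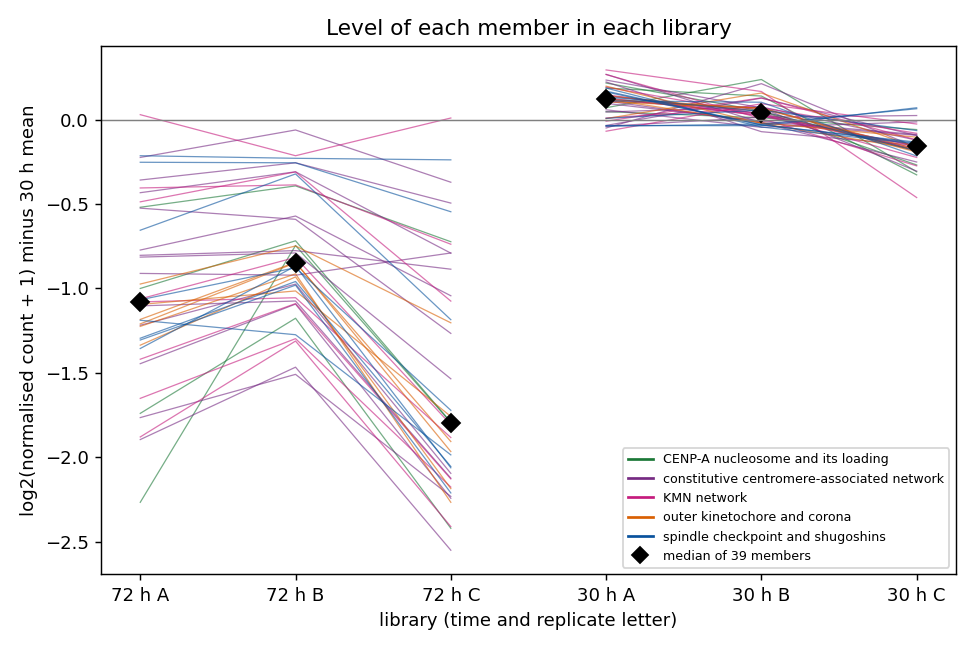
Level of each of the 39 members in the 6 libraries (horizontal axis), as log2(normalised count + 1) minus the mean of the gene over the libraries of 30 h. Lines join the libraries of a group for 1 gene, coloured by role group, and diamonds mark the median of the members, which lies at -1.08, -0.85 and -1.79 in the libraries of 72 h.

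Ratios between partner subunits are given as a description. Ratios within a library do not depend on its size factor, and 17 pairs of partners were examined, chosen, with the gene on top, after the fold changes were known, so the common direction is fixed by that choice. With 3 libraries per group the exact permutation test cannot give a two-sided p under 0.1, so no difference of a ratio could pass 0.05. The ratio of CENPW to CENPT, whose proteins fold together into 1 histone-like unit, was 0.166, 0.185 and 0.131 at 72 h, against 0.505, 0.441 and 0.390 at 30 h (exact p = 0.1, 0.121 adjusted over the 17 pairs). This was the largest shift, 2.79-fold, and the groups did not overlap. The ratio of BUB1 to BUB3 was 0.207, 0.260 and 0.135 at 72 h, against 0.437, 0.415 and 0.440 at 30 h, and that of KNL1 to ZWINT 0.439, 0.496 and 0.458 at 72 h, against 1.08, 0.952 and 0.926 at 30 h. Within the NDC80 complex the ratio of NUF2 to NDC80 was 0.440, 0.643 and 0.531 at 72 h, against 0.806, 0.768 and 0.735 at 30 h. The ratio of CENPA to HJURP was 0.148, 0.181 and 0.159 at 72 h, against 0.244, 0.265 and 0.239 at 30 h. In the SKA complex the groups overlapped, with 0.392, 0.477 and 0.382 for SKA1 over SKA2 at 72 h, against 0.467, 0.395 and 0.417 at 30 h. The groups also overlapped for SKA3 over SKA2 and CENPL over CENPN, and in the other 14 pairs they did not. The same share over other pairs of genes was not computed. Since the pairs were chosen with the fold changes known, the 14 is not a result about partner subunits.

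**Figure D4:**
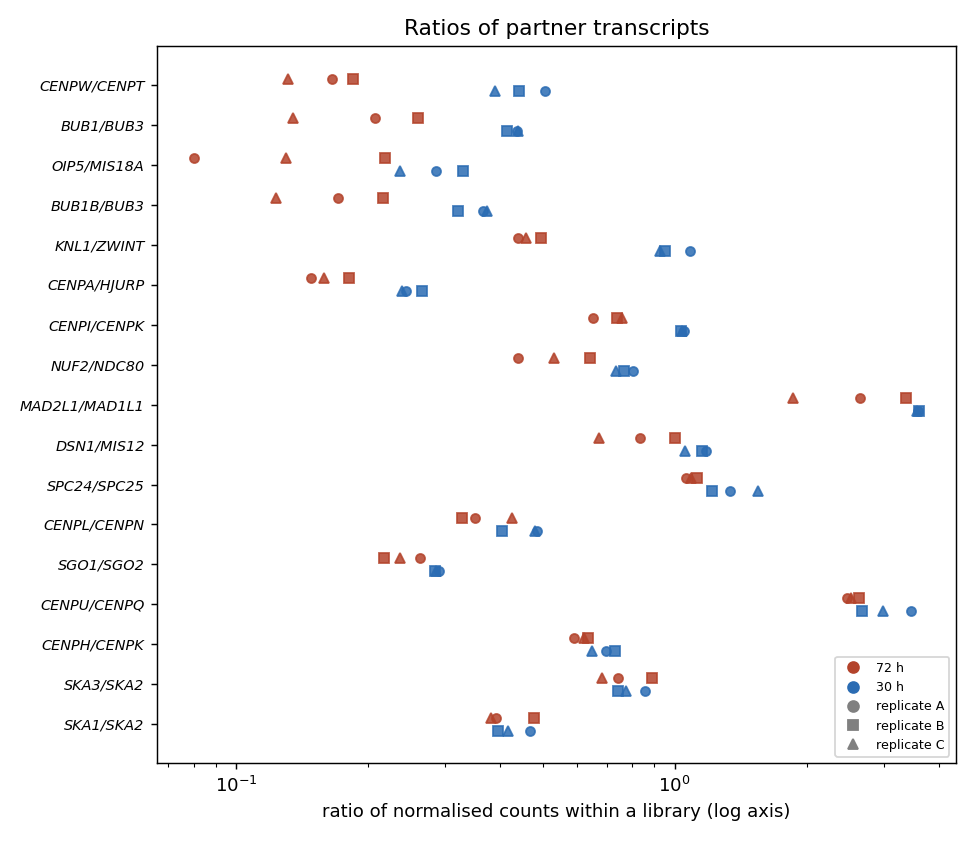
Ratio of the normalised counts of 17 partner pairs within each library (horizontal log axis), with 72 h in red above 30 h in blue and circles, squares and triangles for replicates A, B and C. The ratio of CENPW to CENPT lay at 0.131 to 0.185 at 72 h, against 0.390 to 0.505 at 30 h, while the 2 ratios of the SKA complex overlapped between the times.

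The order of levels between members also differed between the times. Levels per kb, given here as normalised counts per kb of the exons annotated for a gene in GENCODE 29, had a median over the members of 63.3 at 72 h and 147 at 30 h. ZWINT had the highest level per kb at both times, at 330 ± 85.1 (SD, n = 3) at 72 h and 496 ± 26.2 at 30 h. CENPW was in rank 13 at 72 h, with 96.2 ± 23.7 normalised counts per kb, and in rank 2 at 30 h, with 344 ± 63.6. BUB3 was in rank 2 at 72 h, with 224 ± 25.2, and in rank 5 at 30 h, with 286 ± 35.5. MIS12 was in rank 7 at 72 h, with 117 ± 10.7, and in rank 25 at 30 h, with 122 ± 7.24. At 30 h the mean levels of CENPW, SKA2, CENPF, BUB3, SKA3 and HJURP ran from 344 down to 267, and the ranges over the 3 libraries overlapped between each gene and the next. Within single libraries SKA2 lay above CENPF and BUB3 above SKA3 in all 3, while the other neighbours changed places. CENPP had the lowest level at both times, 5.25 at 72 h and 9.77 at 30 h, over an annotated exon length of 9.79 kb. Annotated length counts exons that these cells may not use, so it understates the level of genes with many isoforms.

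Other genes of the kinetochore outside the 39 were taken from a list of 26, all tested. Beside 25.0% of all tested genes that fell and 23.6% that rose, 14 of these 26 fell, 5 rose and 7 did not pass. Their median log2 fold change was -0.31. Those with the largest falls were SPAG5 (astrin, a spindle and kinetochore protein), ITGB3BP (CENP-R), TRIP13 (the ATPase that opens MAD2) and KNTC1 (ROD of the RZZ complex), at log2 fold changes of -1.38, -1.35, -1.23 and -1.01 (adjusted p = 0.0123, 0.00116, 0.00575 and 0.00154). CENPB, which binds centromeric satellite DNA, had 2249, 2471 and 2277 normalised counts at 72 h and 2159, 1980.0 and 1972 at 30 h and rose by a log2 fold change of 0.20 (adjusted p = 0.0229), which missed the threshold when 72 h replicate B or 30 h replicate B was left out (adjusted p = 0.0891 and 0.0891). CENPS, a histone-fold protein of the inner kinetochore and of the Fanconi pathway, rose (log2 fold change 0.67, adjusted p = 0.0124, and 0.0538 without 72 h replicate A), and 1126 bases of its 1.739 kb of exons are shared with the readthrough gene CENPS-CORT on the same strand. The other 3 that rose were RBBP4, a histone chaperone (0.39, adjusted p = 0.000679), MAD2L1BP, the p31comet protein that silences the checkpoint (0.35, adjusted p = 0.00542), and BOD1L1 (0.16, adjusted p = 0.049). The call of BOD1L1 was lost without any 1 library except 30 h replicate C, at adjusted p = 0.0635 to 0.174, with DESeq2 (0.119) and with no filter (0.0609). The authors' deposited table has adjusted p = 0.136 for BOD1L1 and 0.052 for CENPB.

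The chromosomal passenger complex, which carries Aurora B to the inner centromere, fell in all 4 members, against 25.0% of all tested genes. BIRC5 (survivin) had 471, 628 and 289 normalised counts at 72 h and 1559.7, 1411 and 1221 at 30 h (-1.66, adjusted p = 0.00681), and CDCA8 (borealin), AURKB and INCENP had log2 fold changes of -1.38, -1.20 and -0.74 (adjusted p = 0.0219, 0.0153 and 0.00401). The calls of CDCA8 without 30 h replicate A, B or C (adjusted p = 0.0596, 0.0596 and 0.0617) and of AURKB without 30 h replicate B (0.0515) were lost. Of 16 genes of cohesin and its regulators, which hold sister chromatids together, 8 fell, 4 rose and 4 did not pass. Their median log2 fold change was -0.16, and of all tested genes 25.0% fell and 23.6% rose. PTTG1 (securin) and ESPL1 (separase), which control the cut of cohesin at anaphase, had log2 fold changes of -1.57 and -0.93 (adjusted p = 0.000905 and 0.00213), CDCA5 (sororin) -0.91 (adjusted p = 0.0118) and the acetyltransferase gene ESCO2 -0.67 (adjusted p = 0.0287). ESCO2 lost its call without 72 h replicate B or C (adjusted p = 0.0589 and 0.0611) and without 30 h replicate A or B (0.0913 and 0.0986). ESCO1, MAU2, PDS5A and WAPL rose, at log2 fold changes of 0.42, 0.38, 0.23 and 0.17 (adjusted p = 0.00759, 0.000696, 0.00932 and 0.0425). WAPL lost its call without 72 h replicate A or B (adjusted p = 0.149 and 0.0783) and without 30 h replicate A or B (0.164 and 0.112), with DESeq2 (0.104) and with no filter (0.0537), and the authors' deposited table has adjusted p = 0.119 for it. Whether these lists differ from the 39 members was not tested.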

How the data were processed

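mRNA-seq libraries (KAPA mRNA HyperPrep, per the labels' protocols) of 6 samples were analysed. The submitters' processing notes name Trimmomatic 0.35, STAR 2.5.1b, DESeq2 1.18.1 and the GRCh38 (hg38) build. Read counter, annotation and strand mode were each not given in the sources used here. For every gene and library the deposited table gives a signal value, the count after division by a size factor. All values (100% in every library) lay within 0.01 of a whole multiple of the library's smallest value above 0, which gave back whole reads. The authors' log2 fold changes, score (the Wald statistic) and p-values, per the file headers, served as an alternative and where that table is named.

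The filter kept 13315 genes that reached 10 normalised counts in 3 or more libraries. On the scale log2(normalised count + 1), limma 3.58.1 (trend, robust; R 4.3.3) tested 72 h over 30 h, with Benjamini-Hochberg adjustment over all of them. A fold is that of the fit, and the added 1 understates the change of low genes. edgeR 4.0.16 and DESeq2 1.42.0 on the recovered reads were alternatives. Steps were tested on simulated data. Every replicate pair differed beyond sampling noise (chi-square per degree of freedom 3.31 to 16.4), so no pair was treated as 1 library deposited again. This does not show that they were separate cultures.

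The members, role groups and lists were chosen with earlier results of these data known. Named in full were the 4 members with the largest change in each role group, those that did not pass, and defining members, and in the other lists the 4 largest changes and each gene that rose. Further members are given with values because the lists are short. Coordinates are those of the deposited table on GRCh38 and matched GENCODE 29 for all 39 members. Exons overlap those of an opposite-strand gene for 15 members and of a same-strand gene for 2.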

Additional observations from a re-analysis of the deposited data

How the results depend on the processing

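The count of members that fell was 37 with a pseudocount of 0.5 or 5, a filter at 50, TMM size factors, or edgeR on the recovered reads, 36 with quantile normalisation, DESeq2 or the authors' deposited values, and 27 with no filter. Leaving out 1 library gave 29 to 37, and the count of members that rose was 0 under each of the 16 alternatives. Over all tested genes, 3465 of 26826 fell with no filter. Of 13315 genes, 2914 fell with DESeq2 and 2689 to 3295 when 1 library was left out. The median log2 fold change ran from -1.43 to -1.01. Replicate letters were not taken as pairs in the main fit. Deviations from the group means correlated at 0.00696 within letter A, 0.172 within B and 0.185 within C. In a principal component analysis, the second component (6.99% of the variance) was -15.1 for 72 h C and -21.4 for 30 h C. It was 5.93 to 13.4 for the other libraries. Whether libraries of a letter share an origin was not tested. With the replicate letter as a replicate block 36 members fell, and over all genes 3452 fell and 3271 rose, beside 3328 and 3144 without it. It moved only the call of MAD2L1 among the members. Without 1 library MIS12 ran from -0.102 to 0.0198, its sign turning without 72 h replicate B, and the cause was not tested. Of the 37 members that fell, 25 stayed past the threshold under all alternatives and 12 lost the call under at least 1. With no filter 26826 genes were tested and 10 calls were lost (BUB1, BUB1B, CENPE, CENPF, HJURP, MAD1L1, MAD2L1, SKA3, TTK and ZWINT). Outside the members so were those of SPAG5 (adjusted p = 0.0562), AURKB (0.0756) and CDCA8 (0.0884). The limma adjusted p of some other members was smaller with no filter, such as 5.87e-12 for CENPA, beside 0.0041 in the main fit. The cause of these shifts was not tested. Quantile normalisation moved the median of all tested genes to 0.03. The 3 libraries per group limit small changes such as those of MAD1L1 and CENPC.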

Other observations

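Regulators of cell cycle promoters went in both directions, as did all tested genes, of which 25.0% fell and 23.6% rose. Of 14 genes of the DREAM and MuvB complexes and their partners, 7 fell, 5 rose and 2 did not pass. Their median log2 fold change was -0.26, and whether this list differs from all tested genes was not tested. FOXM1, the factor that activates G2 and M phase genes, had 665, 718 and 410.1 normalised counts at 72 h and 1933, 1824 and 1504 at 30 h (log2 fold change -1.58 ± 0.24 SE, limma adjusted p = 0.00317). MYBL2, the activating partner of MuvB, had 179.8, 194 and 129 at 72 h and 476, 462 and 411 at 30 h (-1.44, adjusted p = 6.89e-05). For both, every library of 72 h lay below every library of 30 h. The other 5 that fell were TFDP2, RBL1 (p107) and the MuvB subunits LIN9, LIN54 and LIN52, at log2 fold changes of -0.90, -0.82, -0.78, -0.62 and -0.41 (adjusted p = 1.91e-05, 0.000957, 0.00198, 0.000621 and 0.00732). LIN9 and LIN52 were named after their values were seen. The genes that rose were DYRK1A, a kinase that promotes assembly of DREAM, the E2F factors E2F5 and E2F4, the MuvB subunit RBBP4 and the pocket protein RBL2 (p130), at log2 fold changes of 0.49, 0.49, 0.37, 0.39 and 0.31 (adjusted p = 0.000148, 0.0141, 0.000546, 0.000679 and 0.00339). The call of E2F5 was lost without 72 h replicate B (adjusted p = 0.0502).

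KRT19, an epithelial keratin gene named after its values were seen, had 1.02, 34.9 and 1.05 normalised counts in replicates A, B and C of 72 h, against 4.87, 43.7 and 1.05 in those of 30 h, so both libraries of letter B stood above the others.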
